A study of Homo sapiens with 14 samples.

Results

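Stabilized beta-catenin was overexpressed in HepG2, a human liver cancer cell line labelled as hepatocellular carcinoma, and its poly(A) RNA was sequenced beside cells that carried the empty vector. These are 4 of the 14 samples of a series whose title concerns transposable elements and immune suppression in cancers with driver mutations. The other samples come from a gastric cancer line. Of the 59250 gene symbols in the deposited count table, the 11165 with a mean of at least 5 CPM (read counts scaled by TMM-adjusted library size) in the overexpression group or in the vector group are described here. They lie within the 15703 symbols that were tested.

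The 2 vector samples were HepG2 cells with the empty vector. The 2 overexpression samples were HepG2 cells infected with a lentivirus in which the EF1-alpha promoter drives CTNNB1 without exon 3, joined to a FLAG tag and to GFP, at a low ratio of virus to cells. All 4 were grown in RPMI-1640 medium with fetal bovine serum, and RNA was taken with TRIzol. No clone, sort, selection step or time after infection is named in the labels. Nothing in them says that the replicates were separate cultures, so a p-value here measures no more than the spread of these 4 libraries. The libraries held 13138681 and 19076795 counts (vector) and 20143470 and 23914120 counts (overexpression).

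Beta-catenin joins cadherins to the actin skeleton and is also the transcriptional effector of canonical Wnt signalling. Without a Wnt ligand, a complex of AXIN, APC, GSK3 and casein kinase 1 phosphorylates serines and a threonine encoded by exon 3, and the ubiquitin ligase subunit BTRC marks the protein for destruction. Without exon 3 the protein escapes this and enters the nucleus, where it binds TCF/LEF factors. In liver, Wnt signalling around the central vein sets the perivenous programme of hepatocytes, and activating CTNNB1 mutations are common in liver tumours. HepG2 is itself known to carry a heterozygous CTNNB1 deletion that removes this regulatory region. The gene counts do not show this deletion.

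The stretch that the construct lacks is shown because its loss is what stabilizes the introduced protein, which also carries the FLAG and GFP parts of the cassette. Exon 3 of CTNNB1 (GENCODE v29, GRCh38, chr3:41224526-41224753, plus strand) is coding, is 228 bases long and is a multiple of 3, so its loss removes 76 codons of 781 and keeps the reading frame. Capitals mark the codons of serine 33, serine 37, threonine 41 and serine 45, the residues that are phosphorylated.
CTNNB1 exon 3: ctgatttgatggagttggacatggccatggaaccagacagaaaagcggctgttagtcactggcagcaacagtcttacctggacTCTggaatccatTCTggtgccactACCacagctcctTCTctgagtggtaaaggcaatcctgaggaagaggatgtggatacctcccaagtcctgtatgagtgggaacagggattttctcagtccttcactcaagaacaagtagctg

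CTNNB1 stood at 386 and 377 CPM in the vector libraries and at 1543 and 1557 CPM in the overexpression libraries. The groups did not overlap, and the log2 fold change was 2.02 ± 0.059 (SE, n = 2 against 2; edgeR's quasi-likelihood test, adjusted p = 1.2e-18). The counts are per gene, so endogenous and introduced CTNNB1 transcripts cannot be told apart, and the share of infected cells is not known from them. In bulk RNA, a gene that is lower because fewer cells express it cannot be told apart from one with less RNA per cell, here and below.

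The libraries were HepG2 by their markers. All 18 defining HepG2 genes on the list were tested. ALB, the albumin gene, was at 11776 and 11598 CPM in the vector libraries and HNF4A, a hepatocyte transcription factor, at 403 and 386 CPM. Among markers of other cells, 8 of 16 gastric genes, 5 of 10 embryonic kidney genes, 5 of 10 endothelial genes, 7 of 14 leukocyte genes, 5 of 10 fibroblast genes and 6 of 10 neural genes were at 0 in all 4 libraries. The summed leukocyte list was 2408 and 2422 CPM in vector and 1416 and 1378 CPM in overexpression, nearly all of it LYZ, the lysozyme gene, which fell from 2335 to 1312 CPM. The summed fibroblast list was 833 and 886 CPM against 1408 and 1341 CPM, nearly all of it RELN, the reelin gene, which rose from 768 to 1261 CPM. The summed gastric list was 40.5 and 44.8 CPM against 24.1 and 23.1 CPM, and the neural list 197 and 176 CPM against 160 and 179 CPM. Mitochondrially encoded genes took 5.41% and 5.76% of the vector counts and 4.90% and 4.91% of the overexpression counts. Ribosomal RNA rows took 1.77% and 1.78% against 1.49% and 1.37%. The part of these shifts in the results below was not tested.

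Across the 11165 genes at 5 CPM or more, 1799 (16.1%) were called higher and 1545 (13.8%) lower in the overexpression group at an adjusted p under 0.05. Over all 15703 genes tested, 2014 (12.8%) were higher and 1790 (11.4%) lower, with a median log2 fold change of 0.0037. Most differences were small: 82.1% of the 3344 called genes changed by less than 1.5-fold. At 2-fold or more, 53 genes (0.475%) were higher and 107 (0.958%) were lower. The libraries of the groups did not overlap for 1797 of the 1799 higher genes and for all 1545 lower genes, against 66.1% of all 11165 genes, called or not. The count depends on the spread assumed: without vector replicate 1, 1074 genes were higher and 1043 lower, and a fit that pooled the spread over all 13 matched samples of the series called 40 higher and 70 lower. That fit kept 16 of the 53 genes that rose by 2-fold or more and 45 of the 107 that fell by as much. Leaving out any single HepG2 library kept all 53 and all 107 of them. Of the members of the gene lists used below, 630 were called, against 55 in the pooled fit. The counts of called members in each list below are to be read beside the 12.8% higher and 11.4% lower of all genes tested.

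**Figure D1:**
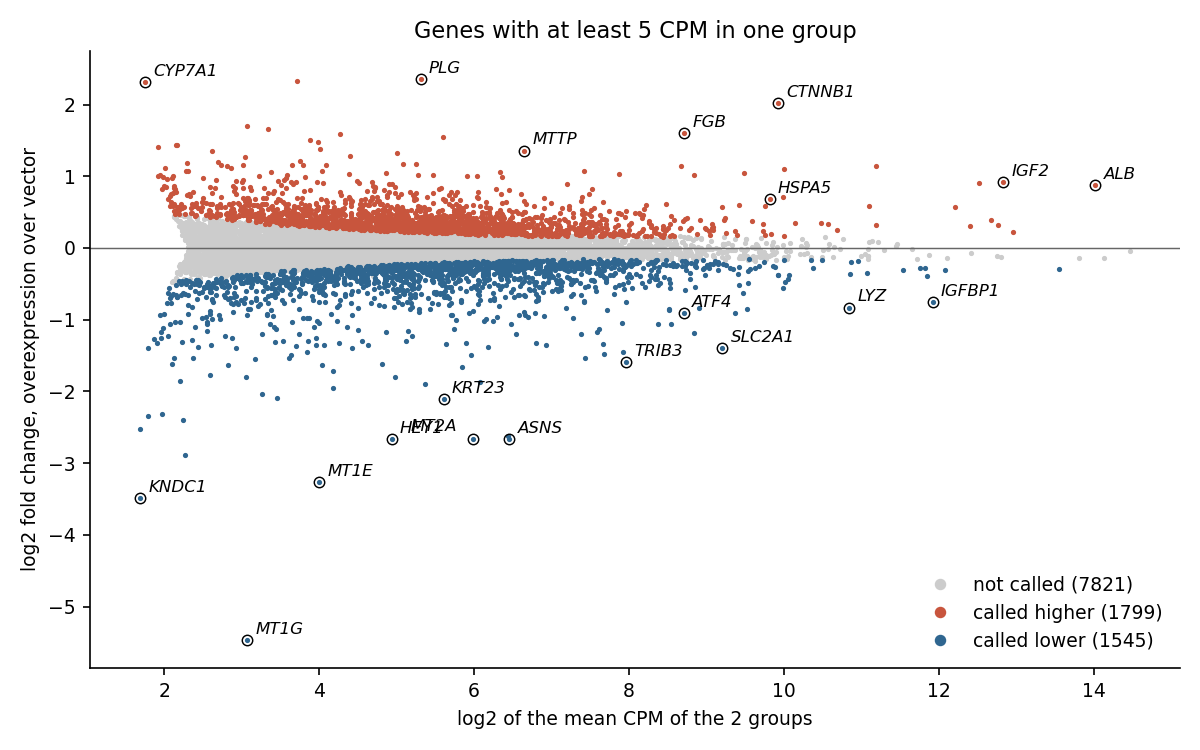
Log2 fold change of overexpression over vector (vertical axis) against the log2 of the mean CPM of the 2 groups (horizontal axis) for the 11165 genes with at least 5 CPM in one group. Each point is a gene, red where called higher (1799), blue where called lower (1545) and grey where not called. CTNNB1 and PLG stand near 2 at the top, and the metallothionein gene MT1G lies lowest.

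Wnt target genes were more often lower than higher in the cells with more CTNNB1. Of 33 tested feedback regulators and known Wnt targets among 52 listed, 2 were called higher and 15 lower, with a median log2 fold change of -0.20, against 12.8% higher and 11.4% lower among all genes tested. In the fit that pooled the spread over all 13 matched samples, 0 members of this list were called higher and 1 lower. The 19 members not tested were at or near 0 in HepG2, among them LEF1, ASCL2 and CDX2.

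NKD1, a Dishevelled antagonist that Wnt signalling induces, was at 355 and 335 CPM in the vector libraries and 268 and 292 CPM in the overexpression libraries. NOTUM, a secreted lipase that inactivates Wnt ligands, was at 402 and 396 against 293 and 308 CPM. For both genes every overexpression library was below every vector library, with log2 fold changes of -0.30 ± 0.061 (adjusted p = 0.00053) and -0.41 ± 0.058 (adjusted p = 6.1e-06). Of all genes at 5 CPM or more, 66.1% had no overlap between the groups, in either direction. AXIN2, the scaffold gene most used as a Wnt readout, was at 111 and 101 against 88.9 and 98.01 CPM. Its log2 fold change of -0.17 ± 0.068 did not pass (adjusted p = 0.066), although its groups did not overlap either. SP5, a zinc finger repressor and direct beta-catenin target, was at 219.6 and 225 against 212 and 229 CPM, and its groups overlapped (log2 fold change -0.012 ± 0.060).

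Among receptors of the R-spondin branch, LGR5 and LGR4 moved apart. LGR5, a receptor that marks Wnt-active stem cells and perivenous hepatocytes, was at 99.7 and 118 CPM in vector and 86.99 and 75.2 CPM in overexpression (log2 fold change -0.43 ± 0.077). LGR4, its more widely expressed relative, was at 63.8 and 68.6 against 107 and 99.8 CPM and rose by 0.64 ± 0.068 on the log2 scale (adjusted p = 6.5e-08). ZNRF3, a ubiquitin ligase that clears Frizzled receptors, had a log2 fold change of -0.21 and fell, and its partner RNF43 had a log2 fold change of 0.10 that did not pass. The call of ZNRF3 was lost without vector replicate 1, vector replicate 2 or overexpression replicate 2 (adjusted p up to 0.16). PROX1, a homeobox factor, was the only other member of the list called higher (63.9 and 67.2 against 91.6 and 88.1 CPM).

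The other called members of this list were all lower. EDN1, the endothelin gene, had the largest fall among those at 5 CPM or more, from 29.9 and 25.7 CPM to 8.02 and 8.69 CPM (log2 fold change -1.72 ± 0.11). BMP4 (-0.58), ZIC2 (-0.47), TNFRSF19 (-0.43), KREMEN1 (-0.42), BAMBI (-0.42), JAG1 (-0.38), VEGFA (-0.26) and CCND1 (-0.20, the cyclin D1 gene) also fell. VEGFA was not called without vector replicate 1 (adjusted p = 0.12), nor CCND1 without vector replicate 2 or overexpression replicate 2 (adjusted p up to 0.26). NKD2 and DKK4 were called lower below 5 CPM. MYC, DKK1, TBX3, ENC1, TCF7, BIRC5 and FOSL1 were not called, with log2 fold changes from -0.15 for FOSL1 to 0.085 for BIRC5.

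Of 47 tested genes for the receptors, the destruction complex and nuclear partners of beta-catenin, 6 (12.8%), CTNNB1 among them, were higher and 7 (14.9%) lower, with a median of -0.052. These shares are near the 12.8% and 11.4% of all genes tested. Without vector replicate 1 the counts were 2 and 4, without vector replicate 2 the lower count was 4, and without overexpression replicate 1 the higher count was 3. AMER1, which anchors APC at the membrane, rose from 14.99 and 12.8 to 19.9 and 21.2 CPM, and this call held with each library left out. APC itself was at 6.42 and 9.95 against 10.9 and 11.4 CPM, and its call was lost without vector replicate 1 or overexpression replicate 2 (adjusted p up to 0.57). BTRC, the ligase subunit that reads the phosphorylated exon 3 residues, had a log2 fold change of 0.24 ± 0.076 and lost its call in 3 of the 4 settings with a library left out (adjusted p up to 0.21; called only without overexpression replicate 2). CSNK1A1, the kinase that primes beta-catenin at serine 45, was at 136 and 143 CPM in vector and 106 and 91.8 CPM in overexpression, and it fell (log2 fold change -0.50 ± 0.069, adjusted p = 3.6e-06). TNKS2, an enzyme that destabilizes AXIN (0.22), was not called without vector replicate 1 or overexpression replicate 1 (adjusted p up to 0.4), and the coactivator gene EP300 (0.17) lost its call whichever library was left out (adjusted p up to 0.26).

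The co-repressor genes TLE4 (-0.34) and TLE5 (-0.25) fell, TLE5 not without vector replicate 1 (adjusted p = 0.099). BCL9L (-0.23) and SMARCA4 (-0.19) were called lower, but each kept its call only without overexpression replicate 2 (adjusted p otherwise up to 0.27 for BCL9L and 0.2 for SMARCA4). FZD7 and FZD8 were called lower below 5 CPM. AXIN1 (0.056), GSK3A (-0.092), GSK3B (0.067), TCF7L2 (-0.052), LRP5 (0.026), LRP6 (0.048), FZD5 (0.052) and DVL2 (-0.067) did not pass. Nor did the receptor genes FZD1, FZD4 and FZD6, the signal carriers DVL1 and DVL3, the kinase genes CSNK1D, CSNK1E and CSNK2A1, FBXW11, TNKS and RNF146 of the turnover machinery, or the nuclear partners CTNNBIP1, CBY1, CTBP1, CREBBP, CHD8, BCL9, PYGO2, TLE1, TLE3 and HBP1. Their log2 fold changes ran from -0.24 for FZD6 to 0.17 for TNKS. Of 29 Wnt ligands, R-spondins and secreted inhibitors, 4 were tested, and WNT3, the only ligand at 5 CPM or more, was at 18.1 and 15.6 against 19.1 and 17.4 CPM. Of 19 tested adherens junction genes, 3 (15.8%) were higher and 2 (10.5%) lower, near the shares of all genes. CDH1, the E-cadherin gene, was at 25.8 and 25.99 CPM in vector and 16.4 and 16.9 CPM in overexpression (log2 fold change -0.64 ± 0.095, adjusted p = 1.3e-05).

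**Figure D2:**
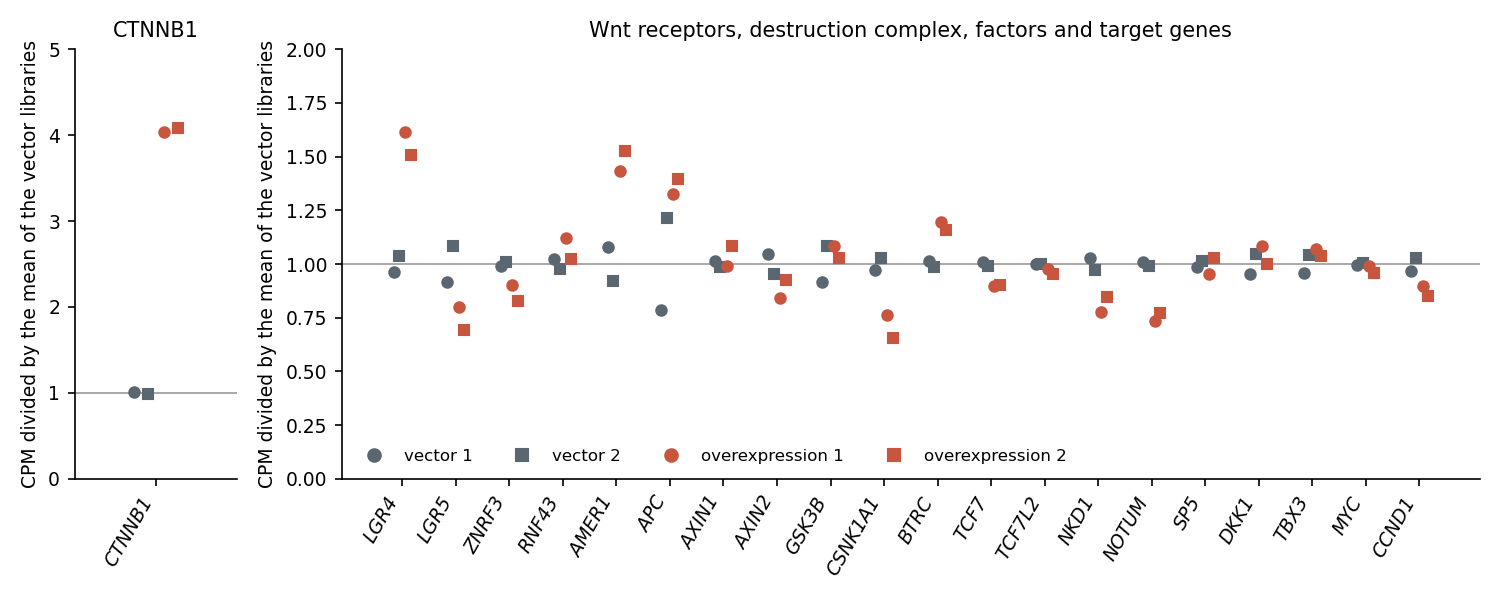
CPM of each library divided by the mean of the vector libraries (vertical axes, 1 is the vector mean) for CTNNB1 and 20 Wnt pathway genes. Points are single libraries, grey for vector and red for overexpression. CTNNB1 stands near 4 in both overexpression libraries, LGR4 and AMER1 lie above the vector libraries, and NKD1, NOTUM, LGR5 and CSNK1A1 lie below them.

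Perivenous and periportal gene sets both held members of either direction. Of the tested perivenous genes, 25% were higher and 18.8% lower, against 12.8% and 11.4% of all genes tested. Of 32 tested perivenous genes, 8 were higher and 6 lower (median 0.056), and the higher count was 5 without vector replicate 1 and 4 without vector replicate 2. GLUL, the glutamine synthetase gene and a classical beta-catenin target in liver, was at 337 and 317 CPM in vector and 365 and 382 CPM in overexpression, a log2 fold change of 0.19 ± 0.059 (adjusted p = 0.019). Its call was lost without vector replicate 1, vector replicate 2 or overexpression replicate 2 (adjusted p up to 0.31). SLC1A2, a glutamate transporter, rose from 73.5 and 71.7 to 127 and 118 CPM (0.75 ± 0.066). In the other direction, OAT, the ornithine aminotransferase gene, fell from 58.2 and 57.03 to 37.4 and 36.5 CPM, and ALDH1A1 and SLC13A3 fell (-0.64 and -0.78). Of the cytochrome genes on this list, CYP7A1 had the largest rise among members at 5 CPM or more and is given with the bile acid genes below. CYP2E1 was at 0.382 and 0.469 against 0.647 and 0.546 CPM and not called. CYP1A2, also below 5 CPM in both groups, was at 0.0765 and 0.2604 against 1.44 and 1.595 CPM, so its vector values rest on few reads.

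Of 34 tested periportal genes, 12 (35.3%) were higher and 7 (20.6%) lower (median 0.074), against 12.8% and 11.4% of all genes tested. SLC2A2, the liver glucose transporter, rose from 19.96 and 26.2 to 55.7 and 50.1 CPM and PCK1, a gluconeogenic enzyme gene, from 4.74 and 4.01 to 8.22 and 8.395 CPM. ASS1, a urea cycle enzyme gene, fell from 73.6 and 73.2 to 31.02 and 35.6 CPM, and PCK2, the mitochondrial form of PCK1, from 500.1 and 502 to 247 and 234 CPM. Neither zone's genes moved in a single direction.

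Many of the largest rises were in genes for secreted liver proteins and bile acid metabolism. PLG, the plasminogen gene, was at 12.6 and 13.2 CPM in vector and 63.4 and 69.2 CPM in overexpression (log2 fold change 2.36 ± 0.090, adjusted p = 1.4e-16). FGB, the fibrinogen beta chain gene, was at 199.7 and 215 against 677 and 579 CPM (1.60 ± 0.069, adjusted p = 1.4e-15). Its partners FGA (1447 and 1465 against 3326 and 3094 CPM) and FGG (634 and 660.3 against 1496 and 1295 CPM) rose by 1.14 and 1.11 on the log2 scale. In each of these genes both overexpression libraries were above both vector libraries, and the fibrinogen genes lie side by side on chromosome 4. The groups did not overlap, in either direction, for 66.1% of all genes at 5 CPM or more.

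The rest of the 20 largest rises at 5 CPM or more came from several classes. SCARA3, a scavenger receptor gene, was at 25.5 and 24.3 CPM in vector and 72.1 and 72.5 CPM in overexpression (1.54 ± 0.077), and AGTR1, the angiotensin II receptor gene, at 12.9 and 11.8 against 29.4 and 30.6 CPM. ACSM2B, a mitochondrial acyl-CoA synthetase gene, rose by 1.70 on the log2 scale, GNG4, a G protein subunit gene, by 1.58, and PCOLCE2, a procollagen processing gene, by 1.38. FBLN7 (1.40), MROH2A (1.44), the tight junction gene CLDN14 (1.35), STEAP2 (1.21) and the ATP receptor gene P2RX7 (1.20) started from low levels, between 2.06 CPM for FBLN7 and 8.04 CPM for STEAP2. SERPING1, UGT1A1 (1.26) and others of the 20 are described with their pathways.

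Of 46 tested coagulation and complement genes, 24 were higher and 4 lower (2 without vector replicate 1), with a median of 0.24. The shares were 52.2% higher and 8.7% lower, against 12.8% and 11.4% of all genes tested. SERPING1, the C1 inhibitor gene (1.43), MBL2, mannose-binding lectin (0.92), F12 (0.79), CPB2 (0.78), F11 (0.51) and SERPINC1, antithrombin (0.41), rose. F7 (-0.39) and C4BPA (-0.42) fell. F2 (-0.13), the prothrombin gene, and C3 (0.088) did not pass. C4A and C4B, near-identical copies whose reads cannot be divided with certainty, had log2 fold changes of 0.40 and 0.40.

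Of 32 tested plasma carrier and acute phase genes, 17 (53.1%) were higher and 1 (3.12%) lower, with a median of 0.30. Among all genes tested, 12.8% were higher and 11.4% lower. ALB rose from 11776 and 11598 to 22373 and 20524 CPM (0.88 ± 0.063, adjusted p = 4.7e-11), which made it the most abundant of the genes that rose. VTN, vitronectin, rose from 157 and 152 to 304 and 326 CPM, HP, haptoglobin, from 54.6 and 50.7 to 111 and 108 CPM, and ITIH1 from 19.5 and 17.3 to 45.7 and 46.3 CPM. HAMP, the hepcidin gene, was the member that fell, from 16.5 and 12.6 to 8.96 and 10.6 CPM, and it was not called without vector replicate 1 (adjusted p = 0.094). AHSG, the fetuin gene, with 7362 and 6905 against 6364 and 6850.4 CPM, and the acute phase genes ORM1 (-0.14) and SERPINA3 (-0.13) did not pass.

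Fetal liver genes gave 8 higher (36.4%) and 4 lower (18.2%) of 22 tested, against 12.8% and 11.4% of all genes tested. IGF2, a fetal growth factor, rose from 4987 and 5071 to 9349.8 and 9611 CPM, DLK1, a hepatoblast surface protein, from 471 and 464 to 926 and 994 CPM, and AFP, alpha-fetoprotein, from 5976 and 6399.9 to 8240.3 and 7180.4 CPM. The call of AFP was lost without overexpression replicate 1 (adjusted p = 0.072). IGF2 overlaps the readthrough symbol INS-IGF2, so its counts may include shared reads. H19, the noncoding neighbour of IGF2, fell from 6.12 and 5.31 to 2.99 and 2.48 CPM, and KRT19, a biliary and progenitor keratin, from 90.3 and 80.2 to 32.3 and 35.1 CPM. Of 13 tested biliary and liver progenitor genes, 6 were lower and 1 higher (2 higher without overexpression replicate 2). SPP1, the osteopontin gene of that list, fell from 83.2 and 90.7 to 30.1 and 25.3 CPM (-1.66 ± 0.082, adjusted p = 2.5e-14).

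Bile acid genes gave 15 higher (51.7%) and 4 lower (13.8%) of 29 tested, with a median of 0.25. All genes tested gave 12.8% higher and 11.4% lower. CYP7A1, the rate-limiting enzyme of bile acid synthesis, stood at 1.15 and 1.09 CPM in vector and 6.42 and 4.79 CPM in overexpression (2.31 ± 0.24, adjusted p = 4.4e-08), a large fold at a low level. BAAT, which joins bile acids to glycine or taurine, rose from 4.51 and 5.16 to 14.9 and 16.04 CPM (1.66 ± 0.13). SULT2A1, which sulfates bile acids and steroids, rose from 109.7 and 110.1 to 236 and 225 CPM. The bile acid receptor gene NR1H4 fell (-0.36), as did its target NR0B2, a repressor of CYP7A1 (167 and 176 against 149.7 and 146 CPM). NR1H4 was not called without overexpression replicate 2 (adjusted p = 0.091), nor NR0B2 without vector replicate 2 (adjusted p = 0.18). The bile acid exporter genes ABCC3 (-0.76) and SLC51B (-0.91) fell, while ABCC2 (0.28) and SLC51A (0.71) rose.

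UGT1A, UGT2B and AKR1C genes, which conjugate or reduce steroids, bilirubin and drugs, gave 17 higher and 0 lower of 18 tested. AKR1C1 was at 301 and 302 CPM in vector and 605 and 618 CPM in overexpression, and AKR1C2 rose by 1.15 ± 0.058 on the log2 scale. AKR1C4 (1.47 ± 0.12) and UGT2B4 (1.503 ± 0.15) were among the 20 largest rises. The count overstates the number of separate genes: UGT1A5, UGT1A8 and UGT1A10 share exons, and each was listed at 1.99 and 1.98 CPM in vector and 4.38 and 4.11 CPM in overexpression. AKR1C members are also very similar in sequence. This list was put together after the values were seen.

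Apolipoprotein and lipoprotein assembly genes gave 16 higher and 4 lower of 34 tested (2 lower without vector replicate 1 or without overexpression replicate 1), with a median of 0.22. The higher share was 47.1%, against 12.8% of all genes tested, and the lower share, 11.8%, was near their 11.4%. MTTP, which loads lipid onto apolipoprotein B, rose from 54.5 and 57.5 to 150.4 and 138 CPM (1.36 ± 0.068, adjusted p = 3.7e-14), and APOB itself from 3568 and 4012 to 5852 and 5464 CPM. ANGPTL8, an insulin-induced inhibitor of lipoprotein lipase, fell from 113 and 98.2 to 28.7 and 29.1 CPM (-1.86 ± 0.077, adjusted p = 6e-16).

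Of 25 tested genes of cholesterol synthesis and uptake, 14 were higher (8 without vector replicate 2) and 1 lower, with a median of 0.22. The shares were 56% higher and 4% lower, against 12.8% and 11.4% of all genes tested. HMGCS1, an early enzyme of the pathway, rose from 41.9 and 44.7 to 88.8 and 86.01 CPM (1.01 ± 0.071, adjusted p = 2.6e-11). IDI1 (0.66) and SQLE (0.44) rose less. Fatty acid and triglyceride synthesis genes gave 13 higher and 5 lower of 31, the higher count being 6 without vector replicate 1 and 8 without vector replicate 2, with FASN at 711 and 667 against 991 and 1084 CPM and AGPAT2, an acyltransferase of triglyceride synthesis, at 21.6 and 19.9 against 7.77 and 8.94 CPM.

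Of 50 tested hepatocyte transcription factor genes, 13 (26%) were higher and 14 (28%) lower, with a median of 0.0073. Among all genes tested, these shares were 12.8% and 11.4%. HNF4A (0.0057), FOXA2 (-0.10) and CEBPA (0.13) did not pass. CREB3L3, a liver factor that controls secretory and lipid genes, rose from 10.6 and 10.4 to 23.9 and 22.9 CPM, and PPARA, the fatty acid receptor gene, from 38.2 and 38.5 to 67.2 and 60.4 CPM. ONECUT1 (0.85), ZBTB20 (0.83) and RORA (0.58) also rose. CEBPB (-0.75), CEBPG (-0.77) and PPARGC1A (-0.50) fell.

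**Figure D3:**
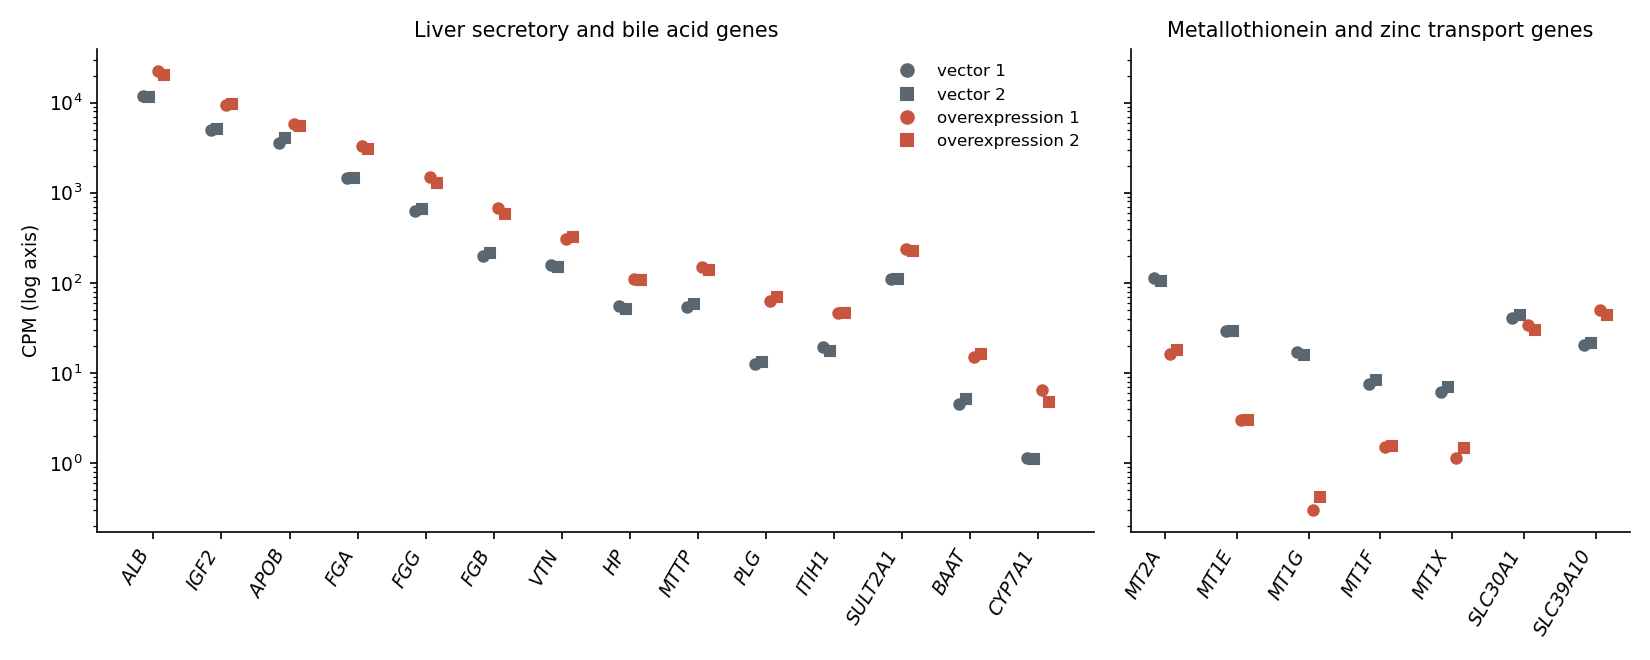
CPM of each library on a log axis for 14 liver secretory and bile acid genes (left) and 7 metallothionein and zinc transport genes (right). Points are single libraries, grey for vector and red for overexpression. In every gene on the left, and in SLC39A10, both overexpression libraries lie above both vector libraries, and in the metallothionein genes and SLC30A1 both lie below.

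Of the 20 largest falls, 5 were in genes of metallothioneins, small proteins that bind zinc and copper. MT1G was at 16.98 and 15.8 CPM in vector and 0.299 and 0.4198 CPM in overexpression (-5.46 ± 0.22, adjusted p = 2.5e-16). MT2A, the most abundant of them, was at 114 and 105 against 16.2 and 18.1 CPM (-2.67 ± 0.080, adjusted p = 1.2e-18). MT1E (29.1 and 29.01 against 2.99 and 3.02 CPM), MT1F (-2.39) and MT1X (-2.32) fell as well. All 6 tested members of the 11 metallothionein genes were called lower, MT1A below 5 CPM. These genes are neighbours on chromosome 16 with very similar sequences, so their counts are not fully independent.

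Zinc transporter genes moved in part with them. SLC30A1, a zinc exporter that zinc induces, fell from 40.8 and 43.96 to 33.96 and 30.01 CPM, while the importer genes SLC39A10 (20.4 and 21.3 against 49.8 and 44.2 CPM) and SLC39A4 (0.89) rose. MTF1, the zinc-sensing factor that activates metallothionein genes, was at 14.4 and 13.4 against 14.4 and 13.7 CPM and did not pass. Of 29 tested metal genes, metallothioneins included, 11 were higher and 10 lower. Iron genes divided: the iron exporter gene SLC40A1 (-0.66) fell, TFR2 (0.69) rose, and the ferritin genes FTH1 (0.12) and FTL (0.062) did not pass.

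MT2A and MT1X had promoters in the RefSeq table (GRCh38.p14), and they are shown because the metallothionein genes moved together. Each run is the 250 bases before the start site on the plus strand. Capitals mark the metal response core TGCNCNC on either strand, a motif chosen after the values were seen.
MT2A (chr16:56608334-56608583): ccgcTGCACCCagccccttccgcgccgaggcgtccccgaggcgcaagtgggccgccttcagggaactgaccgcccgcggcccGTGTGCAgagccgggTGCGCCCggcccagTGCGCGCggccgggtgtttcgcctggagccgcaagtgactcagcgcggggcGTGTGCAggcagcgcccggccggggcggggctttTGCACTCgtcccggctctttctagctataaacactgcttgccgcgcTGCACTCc
MT1X (chr16:56682220-56682469): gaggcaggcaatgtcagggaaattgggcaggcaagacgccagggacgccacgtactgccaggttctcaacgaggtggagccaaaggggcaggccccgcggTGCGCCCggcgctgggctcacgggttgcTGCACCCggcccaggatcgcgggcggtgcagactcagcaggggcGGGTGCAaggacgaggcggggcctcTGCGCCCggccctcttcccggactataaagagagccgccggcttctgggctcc
The core occurs 7 times in the MT2A stretch and 4 times in the MT1X stretch. A single match is common: 69.1% of the promoters of tested genes hold one. At least 3 matches stood in 13.41% of them.

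The second group of large falls was the set of genes that the factor ATF4 is known to induce when amino acids run short. ASNS, asparagine synthetase, was at 147 and 155 CPM in vector and 28.6 and 19.5 CPM in overexpression (-2.67 ± 0.10, adjusted p = 8.7e-17). TRIB3, a pseudokinase, was at 370.0 and 376 against 131 and 116 CPM (-1.60 ± 0.064, adjusted p = 2.7e-16). ATF4 itself was at 537 and 552 against 314 and 267 CPM (-0.91 ± 0.066, adjusted p = 5.2e-11). In all 3 genes the overexpression libraries were below the vector libraries, while 66.1% of all genes at 5 CPM or more had no overlap in either direction. CZ1P-ASNS, a readthrough symbol that overlaps ASNS, was listed at 149 and 24.5 CPM, so its reads cannot be separated from those of ASNS.

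Of 34 tested glutamine, serine and amino acid transport genes, 20 were lower and 2 higher, with a median of -0.57. The serine pathway genes fell from the first to the last enzyme: PHGDH from 322 and 324 to 164 and 149 CPM, PSAT1 from 609.5 and 659.7 to 304 and 255 CPM and PSPH from 141 and 139 to 88.03 and 85.7 CPM. The mitochondrial folate genes MTHFD2 (246 and 267 against 101 and 77.6 CPM) and SHMT2 (-0.86) fell too. Among transporters, SLC7A11, the cystine importer, fell from 66.6 and 75.6 to 35.9 and 21.2 CPM, and SLC1A5, a glutamine importer, from 269 and 267 to 127 and 118 CPM. SLC7A5 (-0.86) and its partner SLC3A2 (-0.84) fell as a pair. The 2 called higher were GLUL, whose call depended on the libraries as given above, and the glutamate dehydrogenase gene GLUD1 (0.35).

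The genes of cytosolic tRNA synthetases, which load amino acids onto tRNAs, divided into 12 lower and 8 not called of 20, with none higher and a median of -0.44. CARS1, for cysteine, fell from 96.2 and 88.02 to 37.2 and 28.2 CPM, MARS1, for methionine, from 299.5 and 301 to 114 and 102 CPM, and YARS1, for tyrosine, from 356 and 354 to 138 and 122 CPM. QARS1, for glutamine (0.081), and VARS1, for valine (0.017), did not pass. The 17 mitochondrial synthetase genes, in contrast, gave 1 lower and 3 higher, with a median of -0.053. Both synthetase lists were put together after the values were seen.

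Chaperone genes of the endoplasmic reticulum were higher, opposite to the ATF4 genes. Over the whole list for the unfolded protein response and the integrated stress response, 14 of 40 tested genes were higher (8 without vector replicate 1) and 16 lower. Separated after the values were seen, the ATF4 branch gave 13 lower of 13 tested and the chaperone branch 10 higher and 0 lower of 15. HSPA5, the chaperone known as BiP, was at 695 and 686 CPM in vector and 1112 and 1103 CPM in overexpression (0.68 ± 0.057, adjusted p = 7.9e-10). MANF rose from 27.3 and 29.1 to 46.9 and 49.5 CPM, and HSP90B1 (0.37) and CANX (0.33) rose less. XBP1, the factor of the chaperone response, fell from 412 and 431 to 317 and 308 CPM, and HERPUD1, a gene of protein disposal at the endoplasmic reticulum, fell (-0.39).

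Cytosolic heat shock genes gave 11 higher and 0 lower of 20 tested, with a median of 0.23. HSPH1 rose from 25.5 and 29.5 to 50.2 and 42.9 CPM and HSP90AA1 from 448 and 495 to 755 and 648 CPM. HSPA1A (0.83) and HSPA1B (0.69) are near-identical copies.

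**Figure D4:**
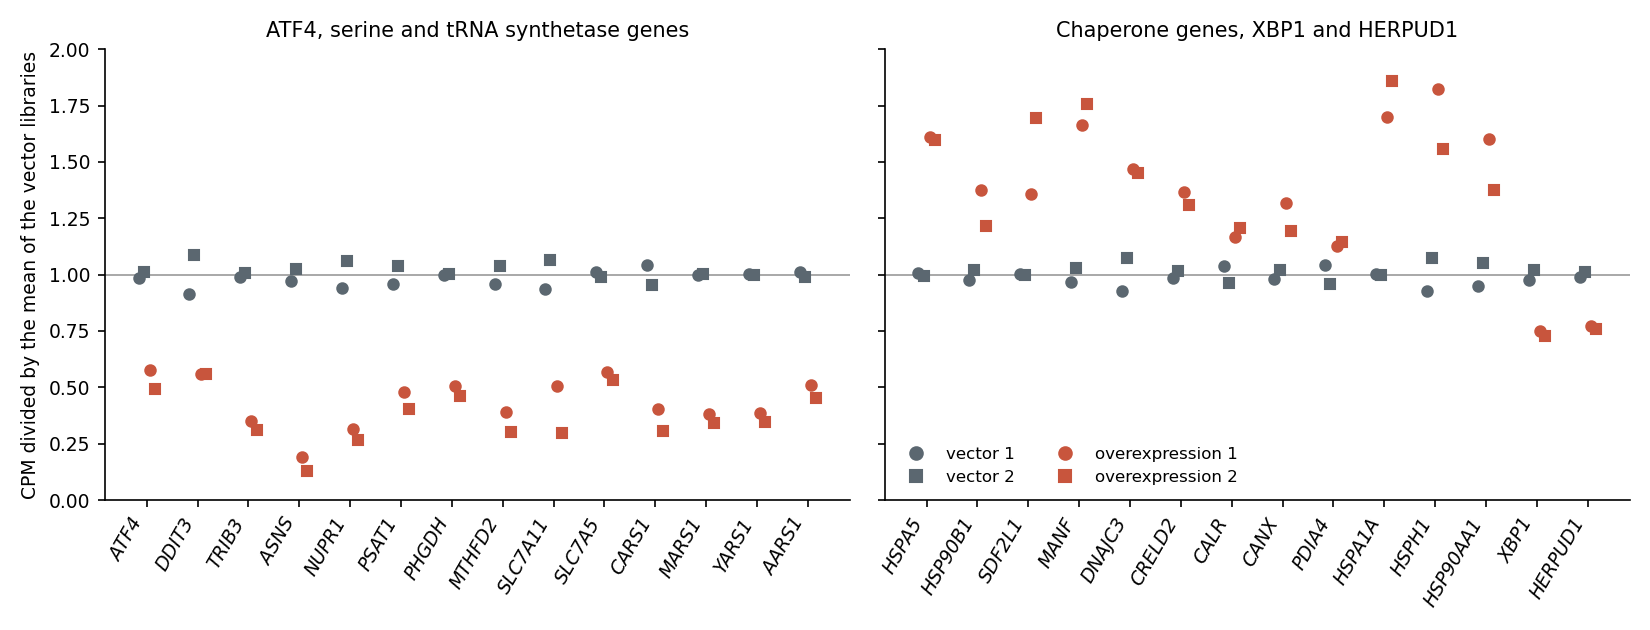
CPM of each library divided by the mean of the vector libraries (vertical axis, 1 is the vector mean) for 14 ATF4, serine and tRNA synthetase genes (left) and 14 chaperone and related genes (right). Points are single libraries, grey for vector and red for overexpression. Every overexpression point on the left lies below the vector points, and on the right every chaperone gene lies above them, with XBP1 and HERPUD1 below.

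Some of the amino acid genes share a sequence motif in their promoters. The core of the amino acid response element, TGATGNAA, was searched on both strands within RefSeq promoters (GRCh38.p14), each from 250 bases before a start site to 50 after it, a motif chosen after the values were seen. A promoter held it in 2.7% of tested genes with a promoter. The share was 5.1% among genes called lower and 3.1% among those called higher. At 5 CPM or more it was 14.1% among genes lower by 2-fold or more and 2.4% among those higher by as much. In the serine and transport list the core stood in 8 of 26 genes with a promoter (30.8%). It stood in 7 of 16 (43.8%) of the cytosolic synthetase list and in 2 of 12 (16.7%) of the ATF4 list. These groups share genes, ASNS among them, so their shares are not separate results. A gene was counted if the promoter of any of its start sites held the core. Start sites averaged 1.41 per tested gene, and 1.54 for genes at 5 CPM or more that were lower by 2-fold or more. The averages were 1.69 for the serine and transport list, 1.31 for the cytosolic synthetase list and 1.83 for the ATF4 list. Among the 65 tested members of the serine and transport, ATF4 and cytosolic synthetase lists, 16 had the core, of which 15 were called lower. Of 36 with a promoter and no core, 21 were called lower. Another promoter of ASNS (chr7:97872166-97872415, minus strand) held 0 matches. The ASNS promoter that holds the core is given with its single match in capitals (chr7:97872409-97872658, minus strand).
ASNS: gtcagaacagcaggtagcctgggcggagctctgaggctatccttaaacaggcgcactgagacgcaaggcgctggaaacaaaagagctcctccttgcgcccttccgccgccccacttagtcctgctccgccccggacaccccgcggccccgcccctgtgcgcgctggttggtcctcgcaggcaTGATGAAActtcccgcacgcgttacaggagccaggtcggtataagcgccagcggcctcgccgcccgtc
Stretches of 24 bases around the core follow, read in the direction of the motif, with the core in capitals. They are for the member not called and for the 9 other members with the largest falls among those with such a stretch. A member called lower had no such stretch extracted and is left out of this ranking.
CARS1 (chr11:3057410-3057433, plus strand): ctagaatcTGATGCAAccgccgcc
MARS1 (chr12:57488056-57488079, minus strand): tccctcgcTGATGCAAccggaacc
GARS1 (chr7:30594837-30594860, minus strand): tcggagcaTGATGAAAtcgccgcg
SLC1A5 (chr19:46784896-46784919, minus strand): gaagtggcTGATGCAAgctgtcca
ATF3 (chr1:212565208-212565231, plus strand): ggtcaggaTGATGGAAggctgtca
AARS1 (chr16:70289678-70289701, plus strand): aacttggcTGATGCAActgcgaga
MTHFD1L (chr6:150866349-150866372, plus strand): gccggctcTGATGCAAtcgcgccg
TARS1 (chr5:33440959-33440982, minus strand): ggaccagcTGATGCAAtcgaaagg
SLC7A1 (chr13:29595666-29595689, minus strand): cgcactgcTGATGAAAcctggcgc
BCAT1 (chr12:24949134-24949157, minus strand): cttcctgcTGATGCAAtccgctag
All but the last belong to genes that fell, with log2 fold changes from -1.498 for CARS1 to -0.86 for SLC7A1. The last belongs to BCAT1, an aminotransferase gene below 5 CPM, at 0.43 and not called. Others that fell, such as TRIB3 and PSAT1, have no match in this window. The core also stood in members with smaller falls: GOT1 (-0.28), NARS1 (-0.48), IARS1 (-0.56) and SLC38A1 (-0.60), of which GOT1 was not called without vector replicate 1 (adjusted p = 0.094).

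The TCF/LEF core ATCAAAG was searched in the same way. Among genes with a promoter, it stood in 2.4% of higher genes, 2.1% of lower genes and 2.2% of all tested genes. Among genes at 5 CPM or more with a promoter, it stood in 2.0%. Of the 41 of these called higher by 2-fold or more, 4 (9.8%) held the core. The longer form CATCAAAG or GATCAAAG stood in 1 of the 41 (2.4%). Of the 78 called lower by as much, 1 (1.3%) held the core. The higher share rests on 4 genes, and its difference from the others was not tested. The 4 genes were MROH2A and the genes AKR1C4, GRB14 and ZNF117, shown with the core in capitals. SP5, a known direct target that was not called, is given for comparison.
AKR1C4 (chr10:5196658-5196680, minus strand): cgtttcttATCAAAGagaatttt
GRB14 (chr2:164568568-164568590, plus strand): agcaaccaATCAAAGcccggaaa
ZNF117 (chr7:64991263-64991285, minus strand): gaaaggtcATCAAAGaaataact
SP5 (chr2:170715220-170715242, minus strand): acccaatcATCAAAGaatagcgg
GRB14, an adaptor that restrains insulin receptor signalling, had a log2 fold change of 1.07 ± 0.18. ZNF117, a zinc finger gene whose locus overlaps ERV3-1, had one of 1.06 ± 0.13.

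Genes of DNA replication were higher. Of 50 tested S phase genes, 37 were called higher and 0 lower, with a median of 0.36. The single changes were small: PCNA, the sliding clamp of DNA polymerases, was at 197 and 201 CPM in vector and 289 and 266 CPM in overexpression (0.48 ± 0.060, adjusted p = 9.1e-07). MCM4, a helicase subunit, was at 145 and 153 against 214 and 199.9 CPM, and E2F2, an activator of S phase genes, at 23.2 and 20.8 against 36.9 and 36.6 CPM. UHRF1, which maintains DNA methylation at replication, rose from 79.6 and 81.1 to 126 and 120.1 CPM. The fit that pooled the spread over all 13 samples called 0 of the 50 higher.

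Of 46 tested mitosis genes, 21 were higher and 1, CCNB2, lower. The higher count was 13 without overexpression replicate 1 and 14 without vector replicate 1, and CCNB2 was not called without vector replicate 1 (adjusted p = 0.1). MKI67, the proliferation marker, was at 220.3 and 228 against 327 and 301 CPM (0.48 ± 0.060). Of 24 tested regulators of the cycle, 6 (25%) were higher and 3 (12.5%) lower, with a median of 0.0255. Among all genes tested, 12.8% were higher and 11.4% lower. The DESeq2 Wald test called 3 of these regulators higher and 1 lower. CDK6 (0.46) and MYCN (0.64) rose, while MXD1 (-0.43) fell, a call lost with the Wald test.

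Glycolysis, glucose uptake and hypoxia genes were more often lower than higher. Of 40 tested, 12 were lower and 5 higher, with a median of -0.11. The lower count was 7 without vector replicate 1, 8 without overexpression replicate 1 and 18 without vector replicate 2 or without overexpression replicate 2, and the higher count was 3 without either vector replicate. SLC2A1, the widespread glucose transporter, was at 881 and 825 CPM in vector and 302 and 346 CPM in overexpression (-1.40 ± 0.065, adjusted p = 7.7e-15), and SLC2A3 at 929 and 791 against 427 and 489 CPM. The liver transporter SLC2A2 rose, as given above. DDIT4, an mTORC1 inhibitor gene that stress induces, fell from 164 and 155 to 66.9 and 60.2 CPM. ALDOA, a glycolytic enzyme gene, fell by a smaller amount (-0.38).

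Growth factor genes and their feedback regulators were more often lower than higher, with 17 lower and 6 higher of 34 tested and a median of -0.25. FGFR1, a fibroblast growth factor receptor, fell from 10.6 and 10.7 to 3.73 and 3.19 CPM and PDGFA, a ligand, from 23.1 and 21.7 to 8.46 and 8.98 CPM. SPRY4 (-0.91), DUSP6 (-0.37), ETV4 (-0.35) and ETV5 (-0.35), which are induced by ERK signalling, all fell. IGFBP1, a liver-secreted binder of insulin-like growth factors, fell from 4829.5 and 4868 to 2814 and 2928 CPM, opposite to IGF2.

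AP-1 and immediate early genes gave 12 lower and 1 higher of 28 (median -0.24), and YAP and TEAD targets 10 lower and 2 higher of 22 (median -0.21; 1 higher without overexpression replicate 1 or without either vector replicate). JUN, an AP-1 subunit, was at 53.6 and 47.03 against 25.9 and 29.7 CPM, and IER3 at 135 and 124 against 54.5 and 58.1 CPM. ANKRD1, a YAP target, fell from 19.7 and 15.99 to 4.58 and 3.74 CPM (-2.09 ± 0.14, adjusted p = 1.7e-11) and CCN2, another, from 962 and 925 to 511 and 536 CPM. TGF-beta and BMP genes gave 15 lower (7 without vector replicate 1) and 2 higher of 38 (1 higher without vector replicate 1, 4 without overexpression replicate 2). INHBE, a liver-secreted activin subunit, fell from 64.5 and 65.4 to 18.9 and 16.2 CPM (-1.89 ± 0.086). The BMP target genes ID1 (-0.33) and SMAD6 (-0.43) were called lower, but not without vector replicate 1 (adjusted p = 0.068 and 0.066).

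Notch genes gave 5 lower and 2 higher (1 without vector replicate 1) of 21. HEY1, a Notch target repressor, fell from 53.9 and 51.8 to 7.72 and 8.899 CPM (-2.66 ± 0.10, adjusted p = 8.3e-17). NOTCH1, a receptor, fell from 8.18 and 8.18 to 4.33 and 3.904 CPM, and JAG1, a ligand, fell (-0.38). Falls among the 20 largest outside the pathways above were those of KNDC1 (5.66 and 6.198 against 0.598 and 0.462 CPM), FUT1, which makes the H blood group antigen (8.34 and 8.59 against 1.39 and 0.923 CPM), IGFBP7 (-2.52), the adhesion gene L1CAM (-2.35), the keratin gene KRT23 (76.1 and 81.98 against 16.98 and 19.7 CPM), SEL1L3 (-2.03), the transporter gene SLC16A6 (-1.95) and the syndecan gene SDC3 (-1.85).

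Immune genes changed in both directions. Of 40 tested interferon response genes, 10 were higher and 3 lower, with a median of 0.014. Without vector replicate 1, 5 were higher, without vector replicate 2, 6 were higher, and without vector replicate 2 or without overexpression replicate 2, 5 were lower. EIF2AK2, the double-stranded RNA kinase, rose from 32.6 and 32.97 to 49.3 and 47.9 CPM, STAT2 from 46.3 and 41.4 to 62.99 and 63.1 CPM and OAS3 from 21.9 and 23.02 to 30.2 and 32.4 CPM, while IFITM3 fell from 110.2 and 110.2 to 78.02 and 84.96 CPM. MHC class I presentation genes gave 4 higher (13.3%) and 4 lower (13.3%) of 30 (median -0.022), near the 12.8% and 11.4% of all genes tested, with 2 higher without vector replicate 1 and 1 without vector replicate 2. NLRC5, the activator of class I genes, fell from 20.7 and 18.1 to 12.7 and 12.6 CPM. HLA-B was at -0.27 and was not called without vector replicate 1 (adjusted p = 0.24).

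Chemokine and cytokine genes gave 6 lower and 0 higher of 14, against 11.4% of all genes tested. CCL20, which attracts lymphocytes and dendritic cells, fell from 161 and 155 to 84.8 and 79.5 CPM (-0.94 ± 0.063, adjusted p = 1.1e-11), and MDK from 141 and 138 to 82.2 and 84.7 CPM. CXCL16 (-0.24), CCL16 (-0.29) and LIF (-0.29) were called lower, but each lost its call without at least 1 library: CCL16 without vector replicate 1, CXCL16 without vector replicate 2 or overexpression replicate 1, and LIF without any of these 3. Their highest adjusted p was 0.095, 0.099 and 0.27, in that order. CCL5, a chemokine that attracts T cells, was at or near 0 in all 4 libraries, as was CD274, the PD-L1 gene. NF-kB factors and targets gave 9 lower and 2 higher (1 without overexpression replicate 1 or without either vector replicate) of 21, with ICAM1 at 145 and 141 against 92.96 and 93.4 CPM and RELB at 7.95 and 7.81 against 3.49 and 4.198 CPM. Of 23 tested genes for immune checkpoint ligands, 3 were higher and 6 lower (3 lower without overexpression replicate 1). The higher share of these checkpoint genes, 13%, was near the 12.8% of all genes tested, and the lower share was 26.1% against 11.4%. FGL1, a liver-secreted ligand of LAG3, rose from 237 and 253 to 352 and 321 CPM. LGALS3, galectin 3, fell from 51.6 and 47.3 to 19.2 and 20.7 CPM (-1.30 ± 0.086).

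Genes that silence or restrict retroelements bear on the title of the series. Of 35 tested silencing and DNA methylation genes, 9 (25.7%) were higher and 0 lower (median 0.13). Among all genes tested, 12.8% were higher and 11.4% lower, and among those at 5 CPM or more 16.1% and 13.8%. The call of DNMT1 was lost whichever library was left out (adjusted p up to 0.25) and that of ATF7IP without vector replicate 1 (adjusted p = 0.063). The 9 were UHRF1, HELLS (0.51), CBX5 (0.46), DNMT1 (0.17), TASOR (0.41), ATF7IP (0.44), ATF7IP2 (0.52), ZNF91 (0.55) and RESF1 (0.61). UHRF1 is also counted with the S phase genes above. Of 16 tested restriction factors and retroelement-derived genes, 5 (31.2%) were higher (3 without vector replicate 2) and 0 lower. ERV3-1, an endogenous retroviral envelope gene, was at 35.4 and 32.3 against 59 and 60.3 CPM (0.82 ± 0.077, adjusted p = 6.3e-09), and its reads may be shared with the overlapping ZNF117. ZC3HAV1 (0.35) and PEG10 (0.31) rose by less. MOV10 (0.29) was not called without vector replicate 2 (adjusted p = 0.051), and TEX19 (0.18) lost its call whichever library was left out (adjusted p up to 0.37). The table counts genes, so transposable element copies themselves were not analysed here.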

How the data were processed

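Poly(A) RNA of 2 empty-vector and 2 CTNNB1 overexpression HepG2 samples was sequenced. The authors deposited a table of whole-number read counts per gene symbol, which was used as deposited. STAR 2.7.10a and hg38 are named per the submitters' processing notes. The counting tool, its annotation and its use of strand were not given in the sources used here. UGT1A5, UGT1A8 and UGT1A10 had identical counts in each library, so reads of overlapping genes were counted for each. Of the 14 sample columns, 1 matched no sample's labels and was not used. The total counts were 13138681 and 19076795 (vector) and 20143470 and 23914120 (overexpression).

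Genes were kept by edgeR's filterByExpr, scaled by TMM and tested with edgeR's quasi-likelihood test (edgeR 4.0.16, limma 3.58.1, R 4.3.3) on the 4 HepG2 samples without a replicate block. p-values were adjusted by Benjamini-Hochberg over all 15703 genes tested, and a gene was called at an adjusted p under 0.05. The test has 2 residual degrees of freedom, and the biological coefficient of variation was 0.0444. CPM values use TMM-scaled library sizes. The SE of a log2 fold change is its size divided by the square root of the F statistic. The script was tested on simulated data.

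The members and the gene lists were chosen with earlier results of these data known. Named genes were CTNNB1, the 20 largest rises and 20 largest falls at 5 CPM or more without overlap between groups, the Wnt list members at 5 CPM or more and up to 6 called members of each other list with the largest change. Further list members were named after their values were seen. The lists of tRNA synthetases, metallothioneins, chaperones, ATF4 genes and UGT and AKR1C genes, and the metal and amino acid motifs, were chosen after seeing the data. Alternatives were DESeq2 1.42.0 (size factors and Wald test), limma-voom, scaling by totals, no filter, other CPM minimums, a fold threshold, a replicate block, a fit over all 13 matched samples and leaving out each library. Promoters came from RefSeq GRCh38.p14 and exon 3 from GENCODE v29. Some genes are not reported here.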

Additional observations from a re-analysis of the deposited data

How the results depend on the processing

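Counts below are genes called higher and then lower in the overexpression group, over all genes tested and then at 5 CPM or more. A fit over all 13 matched samples, which pools their spread, called 40 and 77, then 40 and 70, and 55 list members in place of 630. The DESeq2 Wald test called 1121 and 1071, then 1083 and 1026. Among the lists described, that test moved the higher count from 10 to 4 for interferon genes and 6 to 2 for beta-catenin partners (lower 7 to 4). It moved the higher count from 5 to 2 for glycolysis, 8 to 5 for perivenous genes and 13 to 8 for fatty acid synthesis. For MHC class I it went from 4 to 2 (lower 4 to 2), for NF-kB from 2 to 0 and for YAP targets from 2 to 1. The lower count went from 4 to 2 for apolipoproteins, 6 to 3 for checkpoint ligands and 8 to 5 for tight junctions. A log2 fold change of at least 1 left 179 and 250, then 53 and 107. Leaving out each library gave 1212 to 1942 and 1191 to 1615, then 1074 to 1793 and 1043 to 1434, and 468 to 615 list members. The lowest counts came without vector replicate 1, the shallowest library. That setting moved the counts over all tested genes and the higher count at 5 CPM or more by over 1.5 times, but not the lower count at 5 CPM or more or the list members. The counts moved by less than 1.5 times with limma-voom, DESeq2 size factors, library totals and no filter. Among genes with a promoter, the longer TCF motif stood in 1.3% of higher genes, 1.3% of lower genes and 1.0% of those tested. The causes were not tested.

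The labels give both groups the replicate numbers 1 and 2. With 2 pairs, the deviations of same-numbered samples had a correlation of -0.31 over 11165 genes, so the numbers are not taken as pairs. With the replicate block, 1532 genes were higher and 1384 lower over all tested, and 1319 and 1130 at 5 CPM or more. The crossed pairing, chosen after seeing the data, gave 2981 and 2807, then 2686 and 2482.

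Of 315 named genes, the weaker calls numbered 225 in the fit over all samples, 34 without vector replicate 1, 30 without vector replicate 2, 24 with the Wald test and 20 with the replicate block. Every sign that turned belonged to an uncalled Wnt gene near 0 on the log2 scale. With each library left out, the log2 fold change ran from -0.011 to 0.12 for DKK1, -0.071 to 0.044 for SP5, -0.013 to 0.12 for AXIN1, -0.043 to 0.20 for GSK3B, -0.051 to 0.048 for FBXW11, -0.034 to 0.082 for LRP5, -0.021 to 0.12 for LRP6, -0.053 to 0.010 for DVL3, -0.081 to 0.064 for PYGO2 and -0.065 to 0.028 for TLE1. In the fit over all samples, SP5 was at 0.019, FBXW11 at 0.031, FZD4 at 0.0059, DVL3 at 0.013, PYGO2 at 0.025 and TLE1 at 0.013. FBXW11 was at 0.0063 with no filter and 0.0032 with the crossed pairing, and PYGO2 at 0.0081 with no filter and 0.0040 with limma-voom.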

Other observations

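Keratin, actin and tight junction genes were more often lower than higher. Of 31 tested cytoskeleton genes, 10 were lower and 4 higher (1 higher without vector replicate 1). The simple epithelial keratin pair of hepatocytes fell together, KRT8 from 1256 and 1149 to 835 and 891 CPM and KRT18 from 844 and 765 to 547 and 579.9 CPM. The actin gene ACTG1 fell (-0.35), while MYL9, a myosin light chain gene, rose (0.62). Tight junction and polarity genes gave 8 lower (5 without vector replicate 1 or without overexpression replicate 2) and 4 higher of 21, with CLDN1 at 125 and 138 against 95.2 and 80.5 CPM. Of 26 tested matrix and mesenchymal genes, 5 were lower and 6 higher. SPOCK2, a matrix proteoglycan gene, fell from 235 and 229 to 96.9 and 105 CPM, and TIMP3, a protease inhibitor gene, rose from 63.01 and 65.4 to 98.1 and 101 CPM.

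Drug metabolism genes gave 14 higher and 6 lower of 41 tested. FMO5, a flavin monooxygenase gene, rose from 132 and 132 to 239 and 229 CPM and ADH6, an alcohol dehydrogenase gene, from 117 and 120.5 to 182 and 176 CPM. CYP2B6, a cytochrome P450 gene that drugs induce, fell from 8.64 and 8.49 to 4.58 and 4.41 CPM, and CYP24A1, which degrades vitamin D, fell below 5 CPM (3.9 and 3.18 against 0.349 and 0.546 CPM). NRF2 target genes divided into 9 higher and 6 lower of 34. AKR1C1 and the glutathione synthesis gene GCLM (0.58) rose, and SLC7A11 and AKR1B10 (-0.55) fell. Among 26 tested subunit genes of the BAF chromatin remodelling complexes, PBRM1 rose from 29.1 and 28.6 to 43.8 and 38.8 CPM, and DPF2 fell from 61.3 and 57.2 to 42.6 and 48.3 CPM. In all, 2 of these genes were higher (4 without overexpression replicate 2) and 6 lower (3 without vector replicate 2).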
